A study of Saccharomyces cerevisiae with 2 samples.

Results

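Most snoRNAs of budding yeast (Saccharomyces cerevisiae) are transcribed from genes of their own, alone or in clusters, but a small set is carried inside the introns of protein-coding genes. Such a snoRNA is made when its host pre-mRNA is spliced: the intron lariat is opened by the debranching enzyme Dbr1 and exonucleases trim the ends up to the proteins that already sit on the snoRNA. The members described here were the 8 intron-encoded snoRNAs among the 75 snoRNAs and 5758 features listed with counts. They were chosen by gene name and host intron, with no measured value in the rule. SNR18, SNR24, SNR38, SNR39, SNR54 and SNR59 belong to the box C/D class, which binds Nop1, Nop56, Nop58 and Snu13 and guides 2′-O-methylation of rRNA. SNR44 and SNR191 belong to the box H/ACA class, which binds Cbf5, Nhp2, Gar1 and Nop10 and guides the conversion of uridine to pseudouridine. All 8 had sense reads with Sni445-HTP, and 4 of them had sense reads in the untagged control.

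Sni445 is a yeast protein whose RNA contacts were mapped by CRAC (cross-linking and analysis of cDNA), in which cells are irradiated with UV so that proteins become covalently joined to bound RNA, the tagged protein is isolated under stringent conditions, and the RNA pieces still attached are reverse transcribed and sequenced. One library came from BY4741 cells in which the chromosomal copy of SNI445 was fused at its 3′ end to the HTP tag (a His tag, a cleavage site for TEV protease and protein A), and 1 from an untagged wild-type strain, which shows the RNA recovered without any tagged protein. Both cultures were grown in YNB glucose medium without tryptophan to a density (OD) of 0.6 and UV-treated for 100 seconds, and both cDNAs were amplified by 16 PCR cycles. The Sni445-HTP library held 21867727 mapped reads and the control 12654405, which gave 26984818 and 22960662 sense counts, since 1 read can count on every feature that it overlaps. With 1 library per strain no difference has a replicate check, and no test between strains was made. Every interval below is an exact 95% interval that covers counting error only, with each count taken as independent. PCR copies of 1 molecule are not independent, so the intervals on reads are too narrow. SNR4 and SNR45, the snoRNAs with the most reads by far, had 12785901 and 8670661 reads with Sni445-HTP, or 6701 and 4544 times as many as the 8 intron-encoded snoRNAs together. Their shares of the sense counts were 45.3 and 85.1 times those of the control.

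The box C/D sequences are shown because they carry both the protein-binding boxes that all 6 share and the guides that set them apart. They are written as DNA in the sense of the RNA, 5′ to 3′, from the genome assembly R64, with box C (searched as TGATGN within the first 15 nt) and box D (searched as CTGA within the last 10 nt) in capitals.
SNR18: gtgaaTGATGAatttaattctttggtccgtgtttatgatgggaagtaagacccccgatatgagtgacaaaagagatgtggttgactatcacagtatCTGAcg
SNR24: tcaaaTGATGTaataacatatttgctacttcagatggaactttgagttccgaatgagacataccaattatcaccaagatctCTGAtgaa
SNR38: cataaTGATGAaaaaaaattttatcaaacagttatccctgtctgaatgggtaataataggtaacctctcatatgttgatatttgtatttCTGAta
SNR39: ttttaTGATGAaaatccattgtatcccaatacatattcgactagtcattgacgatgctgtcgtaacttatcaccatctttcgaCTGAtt
SNR54: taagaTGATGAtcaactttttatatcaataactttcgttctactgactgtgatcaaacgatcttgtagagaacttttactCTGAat
SNR59: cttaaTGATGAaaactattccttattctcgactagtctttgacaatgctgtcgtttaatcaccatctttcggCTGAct
SNR18 lies at chrI:142367-142468 on the plus strand in the intron of EFB1, the gene of a translation elongation factor subunit. SNR24 lies at chrXIII:499984-500072 on the minus strand in the intron of ASC1, which encodes a protein of the small ribosomal subunit. SNR38 lies at chrXI:283185-283279 on the plus strand in the intron of TEF4, a gene of another elongation factor subunit. SNR39 lies at chrVII:365163-365251 on the minus strand in intron 2 of RPL7A, and SNR59 at chrXVI:173827-173904 on the plus strand in intron 2 of RPL7B, the paralogous gene of the same protein of the large ribosomal subunit. SNR54 lies at chrXIII:163535-163620 on the minus strand in the intron of IMD4, the gene of an IMP dehydrogenase. In all 6, box C starts at base 6 of the annotated RNA. The same pair of boxes in these windows was found in 33 of 47 box C/D genes (70.2%), in 0 of 29 box H/ACA genes, and in 0.0447% of the 100-nt windows of the genome, read on both strands.

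A box C/D guide pairs with rRNA just upstream of box D or of an internal copy of it, and the rRNA base that pairs with the fifth nucleotide before the box is the one that is methylated. The next sequences are the guide stretches of 5 members, in which the capital is the snoRNA nucleotide that pairs with the methylated rRNA base, found by a search for at least 9 consecutive Watson-Crick pairs with 18S or 25S rRNA next to a CTGA.
SNR24 guide: caccaaGatct
SNR38 guide: cagttatcCctgt
SNR39 guide: tcaccatctTtcg
SNR54 guide: taactttcgTtct
SNR59 guide: tcaccatctTtcgg
The SNR24 guide next to box D had 11 pairs with 25S rRNA, opposite position 1437, a C. The SNR38 guide next to an internal CTGA had 13 pairs with 25S rRNA, opposite position 2815, a G. SNR39 with 13 pairs and SNR59 with 14 pairs both faced position 807 of 25S rRNA, an A, through the same letters next to box D. The SNR54 guide had 13 pairs with 18S rRNA, opposite position 974, an A. SNR18 had no such match beside a CTGA, and its longest run of pairs was 13, with 25S rRNA from 645 to 657. Only the exact letters CTGA were searched, so a guide beside a variant of the box would be missed. The search therefore does not show that SNR18 lacks a guide. SNR24 and SNR59 also had longer runs with 25S rRNA that were not next to a CTGA. These were 12 pairs from 1446 to 1457 for SNR24 and 16 pairs from 1809 to 1824 for SNR59. The SNR59 run began at base 8 of the snoRNA, inside its box C, and the SNR24 run at base 18, after it. Whether either run acts as a guide was not tested. SNR39 and SNR59 were the most alike among the 6, with 67 identical positions in 90 aligned columns (74.4%) and a longest shared run of 14 nt. No 20-nt stretch of any of the 8 members occurs a second time in R64, so a read of that length that matches 1 of them perfectly fits no other place in that assembly.

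The H/ACA members are longer. SNR44 lies at chrXII:856710-856920 on the plus strand in an intron of RPS22B, a gene of the small ribosomal subunit, and is 211 nt long. SNR191 lies at chrXIV:721938-722211 on the minus strand in the intron of NOG2, which encodes a GTPase of 60S subunit assembly, and is 274 nt long. The last 60 nt of SNR191 are shown with the ACA of the box that names the class in capitals, 3 nt before the annotated end.
SNR191 3′ end: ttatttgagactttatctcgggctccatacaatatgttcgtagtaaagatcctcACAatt
An ACA at that distance from the annotated end was found in 14 of 29 box H/ACA genes (48.3%) and in 1.73% of the genome windows. SNR44 had no ACA at that distance from its annotated end, so its sequence is not shown. Each of the 8 snoRNAs is on the strand of its host, and between 79 and 181 nt separate its annotated start from the 5′ splice site.

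The 8 snoRNAs fell into 4 and 4 by the control library. SNR18, SNR24, SNR44 and SNR191 had 3150 control reads or more and a lower share of the sense counts with Sni445-HTP. SNR38, SNR39, SNR54 and SNR59 had 37 to 144 reads with Sni445-HTP and no control read. The plot of member counts shows this as a gap rather than a gradient. A control count of 0 was not particular to the members, since 20 of the other 65 snoRNAs apart from SNR4 and SNR45 had it too.

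Of the box C/D members with control reads, SNR18 had 266 sense reads with Sni445-HTP, against 20633 in the control. Its share was 0.000986% (95% interval 0.000871 to 0.00111) against 0.0899% (0.0886 to 0.0911), a ratio of 0.0110 (0.00968 to 0.0124, log2 ratio -6.51), and this was the lowest ratio among the 8. SNR24, a guide for 25S rRNA, had 268 reads against 4698, a ratio of 0.0485 (0.0428 to 0.0549, log2 ratio -4.37). The read counts of SNR18 and SNR24 thus differed by 2 reads with Sni445-HTP, whereas in the control SNR18 had several times more. Per 100 nt of RNA, SNR18 had 260.8 reads and SNR24 301 with Sni445-HTP, against 20230 and 5279 in the control.

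Both box H/ACA members had control reads. SNR44 had the most reads of the 8 with Sni445-HTP, 614, against 4861 in the control, a ratio of 0.108 (0.0987 to 0.117, log2 ratio -3.22). SNR191 had 430 reads against 3150, a ratio of 0.116 (0.105 to 0.129, log2 ratio -3.11). The intervals of SNR44 and SNR191 in reads overlap, and neither overlaps those of SNR18 or SNR24. Since these intervals take PCR copies as independent, they cannot rank the members. Per length, SNR44 with 291 reads per 100 nt was close to SNR24, and SNR191 had 157.

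The remaining box C/D members had no control read, so their ratios were taken against a floor of 3 control counts. That floor is 1.31e-05% of the sense counts, below the 1.61e-05% that the exact interval of a control count of 0 allows. The ratios are therefore not strict lower bounds. SNR39 had 144 reads with Sni445-HTP, a share 40.8 times that floor. SNR54, the guide for 18S rRNA, had 86 reads and a share 24.4 times the floor. SNR38 had 63 reads, which gave 17.9, and SNR59 had 37, which gave 10.5. The 95% intervals of the ratios, which cover counting error in both libraries, began lower. They began at 32.8 for SNR39, 19.4 for SNR54, 14.1 for SNR38 and 8.12 for SNR59. The order of these ratios is the order of the reads with Sni445-HTP and says nothing of the control. SNR39 and SNR59, which face the same rRNA base from introns of paralogous hosts, differed in level with Sni445-HTP, with 162 and 47.4 reads per 100 nt, and were alike in having no control read. SNR39B, a box C/D snoRNA with a gene of its own that is 68.3% identical to SNR39, had 83 reads and also 0 in the control.

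**Figure D1:**
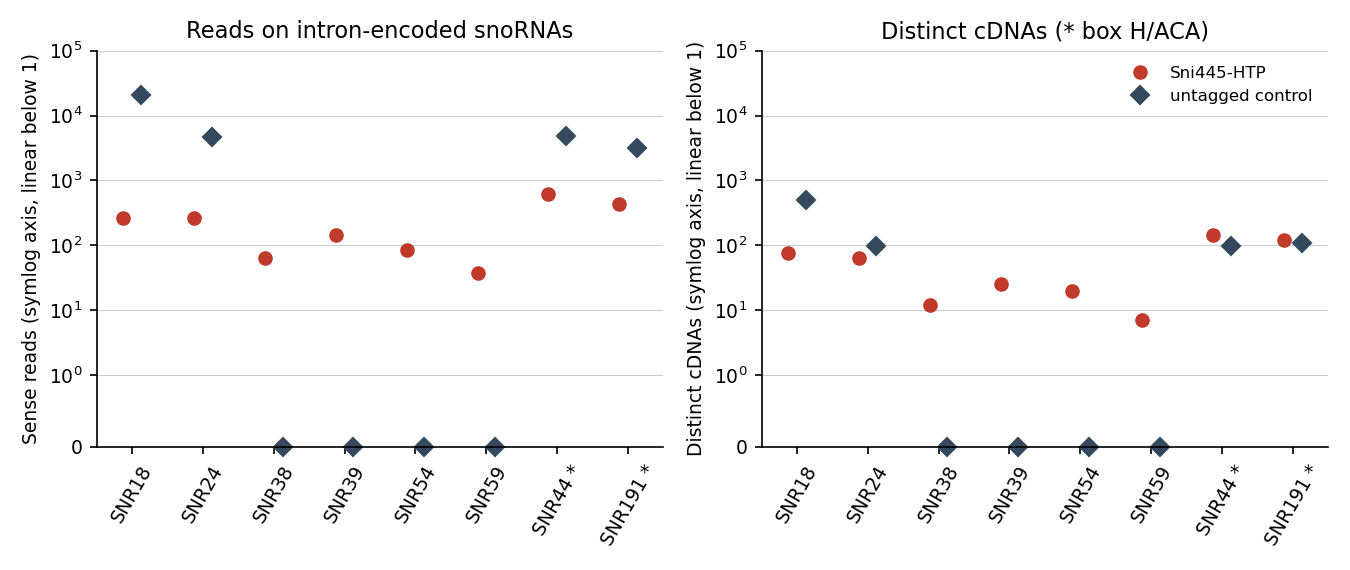
Sense reads (left) and distinct cDNAs (right) on each intron-encoded snoRNA in the Sni445-HTP library (circles) and the untagged control (diamonds), on axes that are logarithmic above 1 and reach 0; there is 1 library per strain and no error bar. SNR38, SNR39, SNR54 and SNR59 sit at 0 in the control in both units, while SNR18 has 20633 control reads and 501 control cDNAs.

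By a rule of size, at least 100 reads in the library where the share is larger and a ratio of at least 4, 1 of the 5 members with enough reads with Sni445-HTP was higher there, SNR39. Across all features the same rule called 38 of 179 (21.2%), so the share of members called was near that of all features. In the other direction 4 of 4 members with enough control reads were lower, SNR18, SNR24, SNR44 and SNR191, where 98.2% of all features tested (895 of 911) were lower as well. SNR38, SNR54 and SNR59 had too few reads for either call. These calls follow the scale: scaling the libraries by the median ratio or by TMM (trimmed mean of M values) multiplies every ratio by 40.6 or 35.0. SNR4 and SNR45 take up most of the Sni445-HTP counts, but their part in these factors was not tested alone. With median-ratio scaling 3 of 5 members were higher, beside 34.1% of all features, and 0 of 4 lower, beside 39.4%. With TMM 2 of 5 were higher, beside 32.4%, and 0 of 4 lower, beside 42%. Together the 8 had 1908 reads with Sni445-HTP against 33342 control reads, a ratio of 0.0487 (0.0465 to 0.0510), which SNR18 weighs on most, and their median ratio, 5.30, falls in the gap between the ones with and without control reads.

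Counting distinct cDNAs in place of reads narrowed the gap between the libraries. SNR18 had 77 cDNAs with Sni445-HTP against 501 control cDNAs, a ratio of cDNA shares of 0.397 (0.308 to 0.505), the only member below 1 in this unit. SNR24 had 64 against 98, a ratio of 1.69 (1.21 to 2.33). SNR44 had 144 against 96, a ratio of 3.87 (2.97 to 5.07), and SNR191 had 120 against 109, a ratio of 2.84 (2.17 to 3.72). SNR24, SNR44 and SNR191 therefore changed direction between reads and cDNAs, where the denominator differed as well as the unit. In reads with SNR4, SNR45 and intergenic features left out of the denominator, their ratios were 1.58, 3.50 and 3.78. The part played by the unit alone was not tested. Among the members without control reads, SNR38 had 12 cDNAs with Sni445-HTP, SNR39 had 25, SNR54 had 20 and SNR59 had 7, against 0 each. Their cDNA shares were 10.3, 21.5, 17.2 and 6.02 times the floor. The 95% intervals of these ratios began lower, at 7.17, 16.2, 12.7 and 3.72. With at least 10 cDNAs in the larger library and a ratio of at least 4, SNR38, SNR39 and SNR54 were higher, 3 of the 7 tested, against 23.3% of all features. None of the 4 with enough control cDNAs was lower, against 32.3% of all features.

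Control reads were copies of fewer cDNAs than reads with Sni445-HTP, relative to their number. With Sni445-HTP a cDNA of a member was read 3.46 (SNR18) to 5.76 (SNR39) times on average, and the values of the 8 lay close together. In the control, it was read 28.9 times for SNR191, 41.2 for SNR18, 47.9 for SNR24 and 50.6 for SNR44. The other 65 snoRNAs apart from SNR4 and SNR45 had medians of 4.17 and 48.0 reads per cDNA, so the members were not set apart by this. A floor of 3 reads is thus less than the reads of a single control cDNA of SNR18, SNR24, SNR44 or SNR191. The ratios of SNR38, SNR39, SNR54 and SNR59 against it do not limit how much of these RNAs the control recovered.

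**Figure D2:**
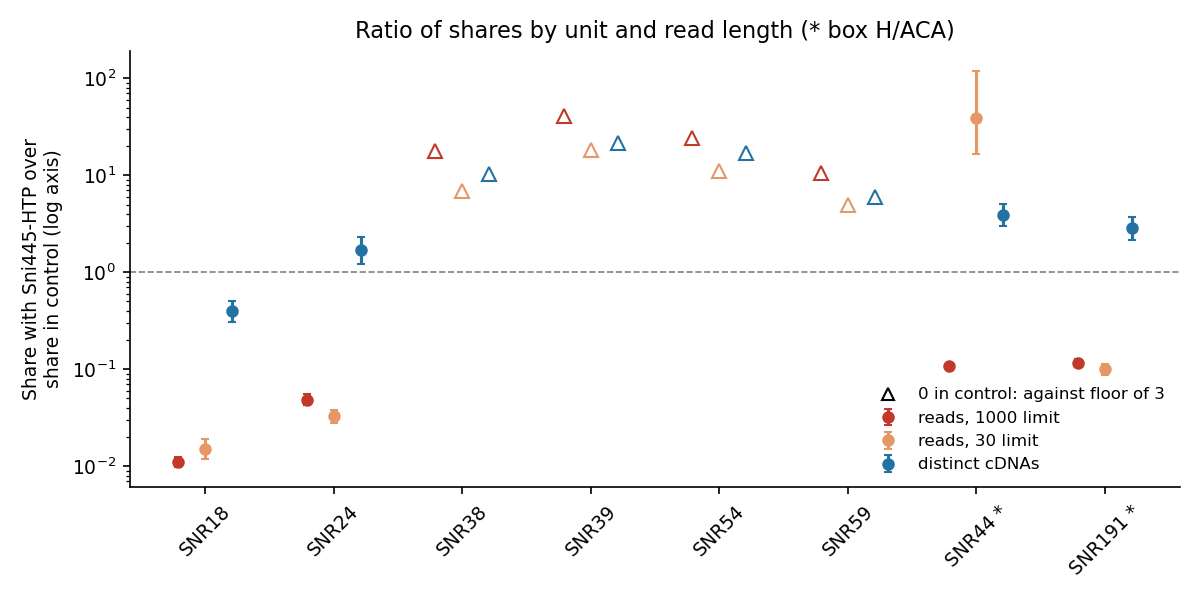
Ratio of the share with Sni445-HTP to the share in the untagged control for each intron-encoded snoRNA, on a log axis. Values are in reads under the 1000 limit, reads under the 30 limit and distinct cDNAs. Bars are exact 95% intervals for counting error, open triangles are ratios against a floor of 3 control counts, and the dashed line marks equal shares. SNR18 is below the line in all 3, and SNR44 is at 0.108 in reads and 38.9 in reads within the 30 limit. The ratios of SNR38, SNR39, SNR54 and SNR59 against the floor are above the line.

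The counts were deposited under a read length limit of 1000 nt, used above, and again under a limit of 30 nt, which keeps the shorter fragments. With Sni445-HTP, 52.3% (50.0 to 54.5) of the members' reads met the 30 limit, near the 52.7% of the other 65 snoRNAs. SNR18 had the lowest share in reads, 76 of 266, 28.6% (23.2 to 34.4), an interval below those of the other 7. In distinct cDNAs it had 28.6% (18.9 to 40.0), an interval that overlapped those of all other members but SNR44 and SNR191, and SNR59 had the same value on 7 cDNAs (3.67 to 71.0). In reads, SNR24 had 63.4% (57.4 to 69.2) and SNR191 55.8% (51.0 to 60.6), while SNR38, SNR39, SNR54 and SNR59 lay between 52.4% and 64.9%.

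In reads, the members differed far more in fragment length in the control than with Sni445-HTP. This did not hold in distinct cDNAs. There, the short share of SNR18, SNR24, SNR44 and SNR191 ran from 3.13% to 31.6% in the control and from 28.6% to 52.5% with Sni445-HTP. SNR24 had 68.8% (67.4 to 70.1) of its control reads within the limit, SNR191 47.7% (45.9 to 49.4) and SNR18 15.2% (14.7 to 15.7). SNR44 had 5 of 4861, 0.103% (0.0334 to 0.240), against 50.8% (46.8 to 54.8) with Sni445-HTP. Almost all control reads of SNR44 were therefore longer than 30 nt. Under the 30 limit alone, its share was 38.9 times that of the control (16.5 to 120.6, on 5 control reads and 3 control cDNAs), and among longer reads 0.0712 times (0.0632 to 0.0800). SNR18, SNR24 and SNR191 were lower with Sni445-HTP in both length classes, with ratios of 0.0151, 0.0328 and 0.0995 within the limit and 0.0124, 0.0765 and 0.132 above it. Among reads within the limit, 1 of the 3 members tested was called higher, SNR44, against 34.2% of all features, and 3 of 3 were lower, SNR18, SNR24 and SNR191, against 96.6%. In distinct cDNAs, SNR44 had 48.6% (40.2 to 57.1) in the short class with Sni445-HTP, against 3.13% (0.649 to 8.86) in the control. SNR18 had 9.38% (6.97 to 12.3) of its control cDNAs in the short class, below the interval with Sni445-HTP, and SNR191 had 52.5% (43.2 to 61.7) and 26.6% (18.6 to 35.9). For SNR24, at 50.0% (37.2 to 62.8) and 31.6% (22.6 to 41.8), the intervals overlap.

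**Figure D3:**
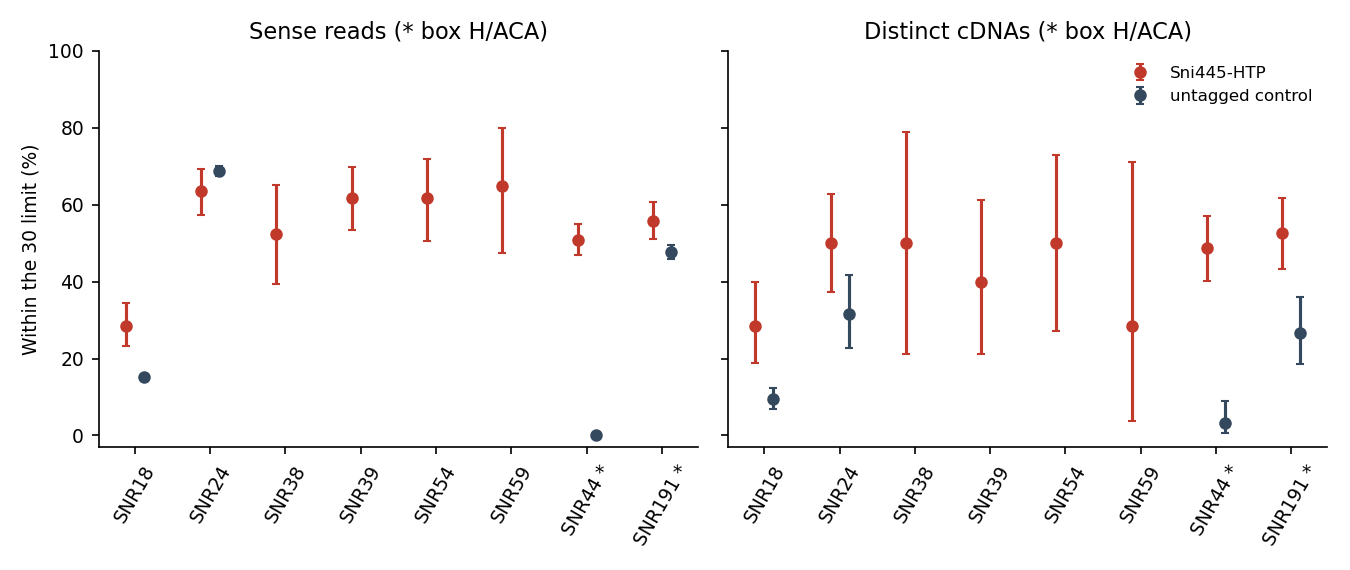
Percent of the sense reads (left) and distinct cDNAs (right) of each intron-encoded snoRNA that were within the 30 limit, in the Sni445-HTP library (red) and the untagged control (dark), with exact 95% intervals for counting error. SNR44 is at 50.8% with Sni445-HTP and at 0.103% in the control, and SNR38, SNR39, SNR54 and SNR59 have no control value because they had no control read.

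To take SNR4, SNR45, rRNA and intergenic counts out of the comparison, each member was set among the 73 snoRNAs other than SNR4 and SNR45, which had 37404 reads with Sni445-HTP against 1430417 control reads. The 8 members made up 5.10% of these reads with Sni445-HTP, against 2.33% in the control. SNR44 had 1.64% against 0.340%, a ratio of 4.83 (4.43 to 5.25), and SNR191 had 1.15% against 0.220%, a ratio of 5.22 (4.71 to 5.78). SNR24 had 0.717% against 0.328%, a ratio of 2.18 (1.92 to 2.47), and SNR18 had 0.711% against 1.44%, a ratio of 0.493 (0.435 to 0.556). Within the remaining snoRNAs, SNR18 was thus the only member with a lower share with Sni445-HTP. A rise here was not particular to the members. In shares of all sense counts the 73 together had a ratio of 0.02225, and a snoRNA above that value rises among them. The median ratio over the other 65 was 0.09265, above it. By rank among the 73, SNR18 stood at 37 with Sni445-HTP and at 9 in the control, SNR44 at 22 and 27, SNR191 at 27 and 36, and SNR24 at 36 and 29. SNR39, SNR54, SNR38 and SNR59 stood at 50, 56, 61 and 71 with Sni445-HTP, in the lower part of the list.

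**Figure D4:**
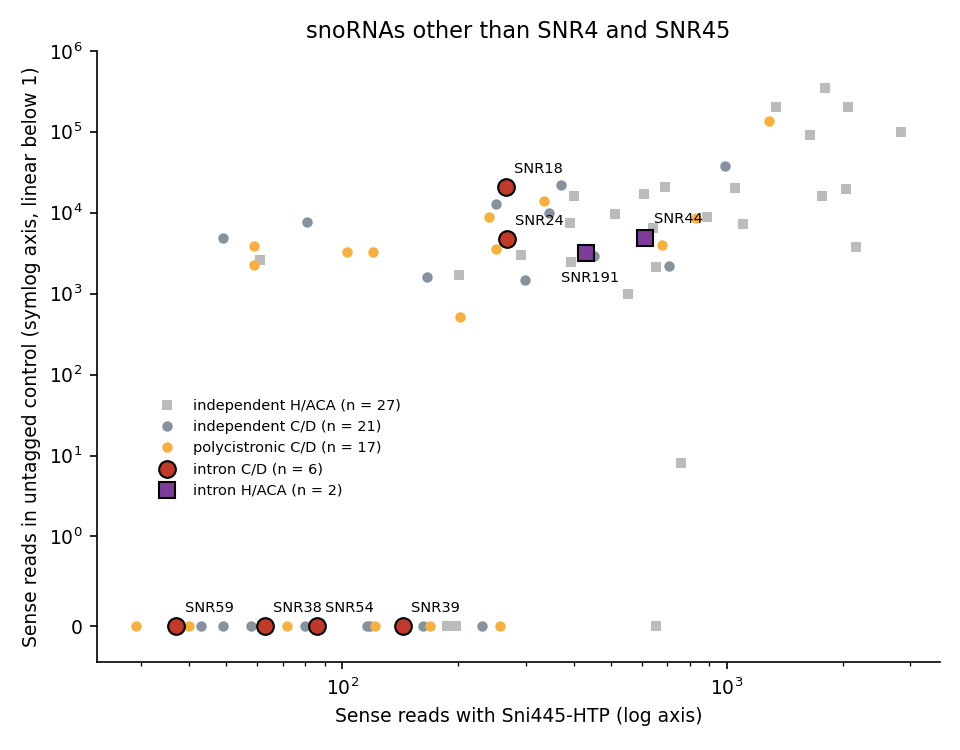
Sense reads with Sni445-HTP (log axis) and in the untagged control (log axis above 1, reaching 0) for the 73 snoRNAs other than SNR4 and SNR45, by class and gene organisation; the intron-encoded snoRNAs are outlined and named. SNR38, SNR39, SNR54 and SNR59 lie on the line of 0 control reads among other snoRNAs with few reads with Sni445-HTP, and SNR18 lies high in the control at 20633.

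Intron-encoded snoRNAs were next set beside snoRNAs from other kinds of genes. A control count of 0 was found for 4 of 6 intron-encoded box C/D snoRNAs (66.7%), for 11 of 21 with independent genes other than SNR4 and SNR45 (52.4%) and for 6 of 17 from polycistronic clusters (35.3%). Among box H/ACA snoRNAs it was found for 0 of 2 in introns and 3 of 27 with independent genes (11.1%), and among all features with at least 10 reads for 29.0%. The groups differ in level as well as in origin. Among the other snoRNAs with as many reads with Sni445-HTP as SNR38, SNR39, SNR54 and SNR59 (37 to 144), 11 of 18 had no control read, and the others had 2266 to 7729. Among those in the range of SNR18, SNR24, SNR44 and SNR191 (266 to 614), 0 of 12 lacked control reads, and the counts ran from 996 to 21997. These ranges are those of the members. Between them, at 145 to 265 reads, 6 of 12 other snoRNAs had no control read, and above them 1 of 21 had none. The median ratio of shares was 14.2 over the intron-encoded box C/D group, 0.0816 over the polycistronic and 10.2 over the independent box C/D group, 0.112 over the intron-encoded and 0.0833 over the independent box H/ACA group, and 0.0449 over all features with at least 10 reads. The medians of 14.2 and 10.2 rest on snoRNAs set to the floor and are not measured folds, since the summed reads of these groups gave ratios of 0.0290 and 0.0389. In cDNAs, 7 of 8 members had a ratio above 1, beside 53 of the other 65.

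The snoRNAs whose counts were most like those of each member, over both libraries, length limits and units (8 values, by Euclidean distance of log10(count + 1)), were mostly box C/D snoRNAs with genes of their own or in clusters. SNR13, with 251 Sni445-HTP reads and 12926 control reads, was nearest to SNR18, at a distance of 0.441. SNR51, with 251 and 3554, was nearest to SNR24 at 0.312 and to SNR191 at 0.725. The box H/ACA members stood farther from their nearest snoRNA than the box C/D members did, since the nearest to SNR44, SNR63, was at 0.613. Of the ones without control reads, SNR54 was nearest to SNR74 at 0.178, SNR38 to SNR62 at 0.200, SNR39 to SNR76 at 0.205 and SNR59 to SNR53 at 0.324, and all of these had 0 control reads too. Since few reads and no control read make any such pair alike, these distances describe level only.

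A read within an intron-encoded snoRNA also lies within its host gene, so the host counts were read for double counting. In all 32 comparisons, 8 pairs in 2 libraries under both limits, the host count was at least that of its snoRNA. With Sni445-HTP, SNR44 had 614 reads and RPS22B 614, SNR54 had 86 and IMD4 86, and SNR191 had 430 and NOG2 432. For these hosts, the count exceeded that of the snoRNA by at most 2 reads. EFB1 had 296 reads beside the 266 of SNR18, ASC1 had 377 beside the 268 of SNR24, TEF4 had 83 beside the 63 of SNR38, RPL7A had 177 beside the 144 of SNR39, and RPL7B had 49 beside the 37 of SNR59. Over the 8 hosts, the snoRNA count was 90.3% of the host count with Sni445-HTP (1908 of 2114), which left 206 reads, and 57.4% in the control (33342 of 58115), which left 24773.

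The control showed the same full overlap for RPS22B, with 4861 reads beside 4861 on SNR44, and for NOG2, with 3150 beside 3150 on SNR191. IMD4 and TEF4, in contrast, had 7736 and 312 control reads while SNR54 and SNR38 had 0, so those reads lay outside the snoRNA. Exon reads of IMD4, RPL7A, RPL7B and RPS22B can also match paralogous genes, which makes the host counts beyond the snoRNAs uncertain. RPL7A and RPL7B had no control read, like SNR39 and SNR59. The absence of SNR39 and SNR59 thus coincided with the absence of their whole host genes, and that of SNR38 and SNR54 did not. Any protein-coding total that includes the 8 hosts holds these snoRNA reads, which came to 2.46% of all protein-coding sense counts with Sni445-HTP and 1.25% in the control.

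**Figure D5:**
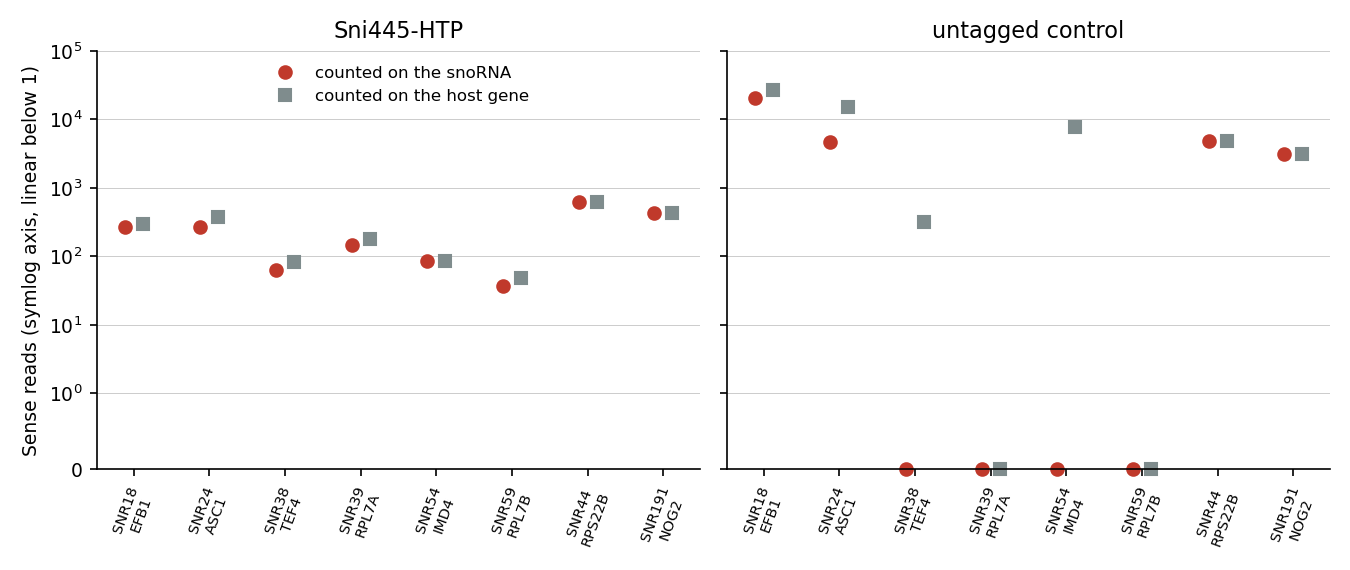
Sense reads counted on each intron-encoded snoRNA (circles) and on its host gene (squares), in the Sni445-HTP library (left) and the untagged control (right), on axes that are logarithmic above 1 and reach 0. SNR44 and RPS22B coincide in both libraries, at 614 and 4861, and IMD4 has 7736 control reads above 0 on SNR54.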

How the data were processed

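Counts of 2 CRAC libraries were analysed, 1 from Sni445-HTP cells and 1 from untagged cells, assigned to groups by the sample labels. The authors separated the libraries by index, checked them with FastQC 0.12.1, aligned them with Novoalign 3.09.00, which placed reads with several matching sites at random, and counted them with pyReadCounters (Counters 1.4.4 per the file headers) on their own annotation. The deposited values are raw counts per feature: sense reads, antisense reads and distinct cDNAs, under read length limits of 30 and 1000. The way cDNAs were made distinct is not given in the sources used here. The members had no antisense read.

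Shares of the sense counts, Clopper-Pearson intervals and conditional binomial intervals of ratios were computed in Python 3.11.15 with scipy 1.17.1, and TMM factors with edgeR 4.0.16 in R 4.3.3. No count model was fitted, since there is 1 library per strain. A count of 0 was set to 3 counts for a ratio. cDNA shares were taken over features without antisense reads in that library, since cDNA counts are not split by direction. Sequences and gene places are from R64, matched by gene symbol; the authors' annotation was not used for them. NME1, listed with the snoRNAs, is the RNase MRP RNA and was left out. SNR65 had no listed count and entered only the search for boxes, among the 47 box C/D genes. The rules were tested on simulated counts. These were independent counts without PCR copies, and every feature changed in them had control reads. The test therefore does not cover copied reads or ratios against the floor. The 8 members, the groups by gene organisation and the named genes (the members, their hosts, SNR4, SNR45, SNR39B and the 2 snoRNAs nearest in counts to each member) were chosen with earlier results of these data known. Alternatives were the 30 limit, reads above it, cDNAs, other denominators, antisense counts added, both scalings, and other floors, minimums and ratios. cDNAs within the 30 limit were added after seeing the data. Positions of reads within the snoRNAs were not analysed here.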

Additional observations from a re-analysis of the deposited data

How the results depend on the processing

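Across the main setting and 13 alternatives, SNR18 stayed below 1 in all 14 (0.00340 to 0.604, the last with an interval of 0.346 to 1.02). SNR38, SNR39 and SNR54 stayed above 1 in all 14. Their control count was 0 throughout and was set to the floor, so this shows only that their Sni445-HTP counts exceeded the floor at each scale. SNR59 was above 1 in 13, and in cDNAs within the 30 limit it had 2 against 0, both under the floor, which gives no ratio. SNR24 and SNR191 were above 1 in 6 and SNR44 in 7. With no replicates, no library could be left out, and depth limits SNR38, SNR54 and SNR59 most. No paired analysis was possible because each strain has 1 library. The causes of the following changes were not tested, apart from the scale itself. Reversed values for SNR24, SNR44 and SNR191 were 1.69, 3.87 and 2.84 in cDNAs; 1.58, 3.50 and 3.78 without SNR4, SNR45 and intergenic features in the denominator; 2.18, 4.83 and 5.22 among other snoRNAs; 1.97, 4.36 and 4.71 with median-ratio scaling; 1.70, 3.76 and 4.07 with TMM; and 1.33, 30.1 and 2.80 in cDNAs within the 30 limit, an alternative chosen after seeing the data, in which the interval of SNR24 (0.787 to 2.26) includes 1. SNR44 was also reversed under the 30 limit, at 38.9. For the 8 together (0.0487), the same 6 settings gave 1.51, 1.59, 2.19, 1.98, 1.71 and 2.52. It was 0.0790 under the 30 limit, 0.0409 above it, 0.0331 over mapped reads, 0.0151 without rRNA and 0.0422 with antisense counts. The median ratio (5.30) was 2.55 above the 30 limit, 173 without SNR4, SNR45 and intergenic features, 1.65 without rRNA, 238 among other snoRNAs, 215 with median-ratio scaling, 186 with TMM, 15.8 with a floor of 1 count, 1.63 with a floor of 10 and 2.69 in cDNAs within the 30 limit. The number of members called higher, 1 of 5 beside 21.2% of all features, was 0 of 3 above the 30 limit (10% of all features), 0 of 2 in cDNAs with a minimum of 100 (18%), 3 of 7 with a minimum of 10 cDNAs (23.3%), 3 of 5 among other snoRNAs (34.6%), 3 of 5 with median-ratio scaling (34.1%), 2 of 5 with TMM (32.4%), 4 of 8 with a minimum of 10 reads (25.4%) and 0 with 1000, where no member had enough. The number called lower, 4 of 4 beside 98.2%, was 2 with a ratio of 10 (93.6%). It was 0 in cDNAs with a minimum of 100 (30%) or 10 (32.3%), without SNR4, SNR45 and intergenic features (43%), among other snoRNAs (36%), with median-ratio scaling (39.4%) and with TMM (42%). In cDNAs within the 30 limit both numbers were 0 because no member had 100 of them.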
